A study of Mus musculus with 4 samples.

Results

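The genes described here are the G1 cyclins Ccnd1, Ccnd2, Ccnd3, Ccne1 and Ccne2, the kinases Cdk4 and Cdk6, and the inhibitors Cdkn1a, Cdkn1b and Cdkn2c. They were chosen by symbol and matched to Ensembl identifiers, which gave 10 of the 41214 genes counted in each library. The libraries were RNA sequencing of megakaryocytes, the platelet-forming cells of the marrow, sorted from the leg and upper arm bones of C57Bl/6 mice aged 8 weeks as cells without lineage markers and with cKit, CD41 and CD61. The groups were Gfi1b KO with PF4-Cre, Gfi1b KO with ROSA-Cre, Gfi1b wild-type with PF4-Cre and Gfi1b wild-type with ROSA-Cre, with 1 library each. Gfi1b encodes a zinc finger repressor of blood cell development. All 4 groups are named by a Cre model, wild-type included, and the labels say neither whether the wild-type mice carried the Cre itself nor which exons were removed. The promoter of Pf4, which drives PF4-Cre, is used mainly in the megakaryocyte lineage, and nothing more is said of the ROSA-Cre allele, of any agent given or of pooling of mice.

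Passage through the G1 phase of the cell cycle is driven by cyclin D bound to CDK4 or CDK6, which begins to phosphorylate the retinoblastoma protein, and then by cyclin E bound to CDK2. Phosphorylated retinoblastoma protein lets go of E2F factors, which switch on genes of DNA replication. INK4 proteins such as the product of Cdkn2c bind CDK4 and CDK6, and CIP/KIP proteins such as those of Cdkn1a and Cdkn1b hold back cyclin-CDK2 complexes. Megakaryocytes become polyploid by endomitosis, rounds of DNA replication without cell division, and cyclins D3 and E have been tied to those rounds in mice.

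Gene counts per library were 59595680 in PF4-Cre KO and 21835165 in ROSA-Cre KO, against 61652843 in PF4-Cre wild-type and 24869421 in ROSA-Cre wild-type. Levels are given as CPM, the count scaled to a library size normalised by the trimmed mean of M-values (TMM). Gfi1b itself was higher in libraries labelled KO, at 1401 CPM (PF4-Cre) and 2462 CPM (ROSA-Cre) against 169.6 CPM and 238.3 CPM in the wild-type libraries. The count sums all exons and cannot check the labels, so KO means the library labelled KO throughout, and every direction rests on those labels. Of 15 megakaryocyte markers, 0 were under 1 CPM in all libraries, and their summed level was 8150 and 7206 CPM in KO (PF4-Cre and ROSA-Cre) and 7547 and 10440 CPM in wild-type libraries. Of these markers 4 were higher in KO and 3 lower. By the same test, described below, 12.6% of all tested genes were higher and 9.59% lower. Of 12 neutrophil markers 5 were lower in KO and 0 higher, with sums of 1070 and 498.2 CPM against 1749 and 1904 CPM, led by the granule enzyme gene Mpo. The median log2 ratio of KO to wild-type over these markers was -0.263 in PF4-Cre and -1.903 in ROSA-Cre. The other 7 were not called. Among them S100a8 and S100a9 (named after their values were seen) had ratios of 1.23 and 1.22 in PF4-Cre, against 0.347 and 0.287 in ROSA-Cre. Monocyte markers were lower for 3 of 10 and higher for 0, and stem cell, erythroid and endothelial markers were higher for 4, 5 and 3 and lower for 1, 2 and 0, of 12, 12 and 8 genes. Mast cell, basophil and eosinophil markers, led by Prg2 in ROSA-Cre and by Cpa3 (named after its value was seen) in PF4-Cre, summed to 92.1 and 305.9 CPM in KO and 86.0 and 362.4 CPM in wild-type. The sum was higher in both ROSA-Cre libraries, as was Prg2, at 156.8 CPM in KO and 228.1 CPM in wild-type against 4.68 and 17.9 CPM in PF4-Cre. Cpa3 went the other way, at 7.06 and 4.92 CPM in ROSA-Cre against 39.5 and 29.3 CPM in PF4-Cre. The part of such cells in the results below was not tested. Of the T and NK cell markers 6 of 8, and of the B cell markers 5 of 8, stayed under 1 CPM in every library. The highest of the former in CPM was Nkg7, at 32.4 (PF4-Cre) and 80.4 CPM (ROSA-Cre) in KO against 71.9 and 90.7 CPM in wild-type. The highest B cell marker was Cd79b, at 20.2 and 19.7 CPM in KO against 26.35 and 26.74 CPM in wild-type. Neither was called. In such bulk samples fewer cells of a type and less RNA per cell cannot be told apart.

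The main comparison asked which of these genes differed between KO and wild-type cells in both Cre models. All 10 passed the filter on low counts. Of them 5 were lower in KO (Ccnd1, Ccnd2, Ccne1, Ccne2 and Cdk4), 1 was higher (Cdkn1b) and 4 did not pass the test (Ccnd3, Cdk6, Cdkn1a and Cdkn2c). Over all 15063 tested genes 22.2% were called, 9.59% lower and 12.6% higher, by the quasi-likelihood test of edgeR (Cre model and genotype both fitted, Benjamini-Hochberg adjustment at 0.05). Of the called genes 56.9% were higher, and 68.3% under upper-quartile scaling, which also left Ccne1 and Cdk4 uncalled. That share was 72.7% with no filter on low counts, 97.5% of 162 calls without the Cre model term, and 82.1% to 90.8% without any 1 library. Every adjusted p for genotype below comes from that fit, with n = 2 libraries per genotype, 1 from each model. Each model thus served as the replicate of the other. A gene's own residual spread is then the difference in its genotype effect between the models. Its sources, such as Cre model, mouse and technical variation, cannot be told apart. The median log2 fold change was -0.194 over the 10 genes and -0.023 over all tested genes.

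**Figure D1:**
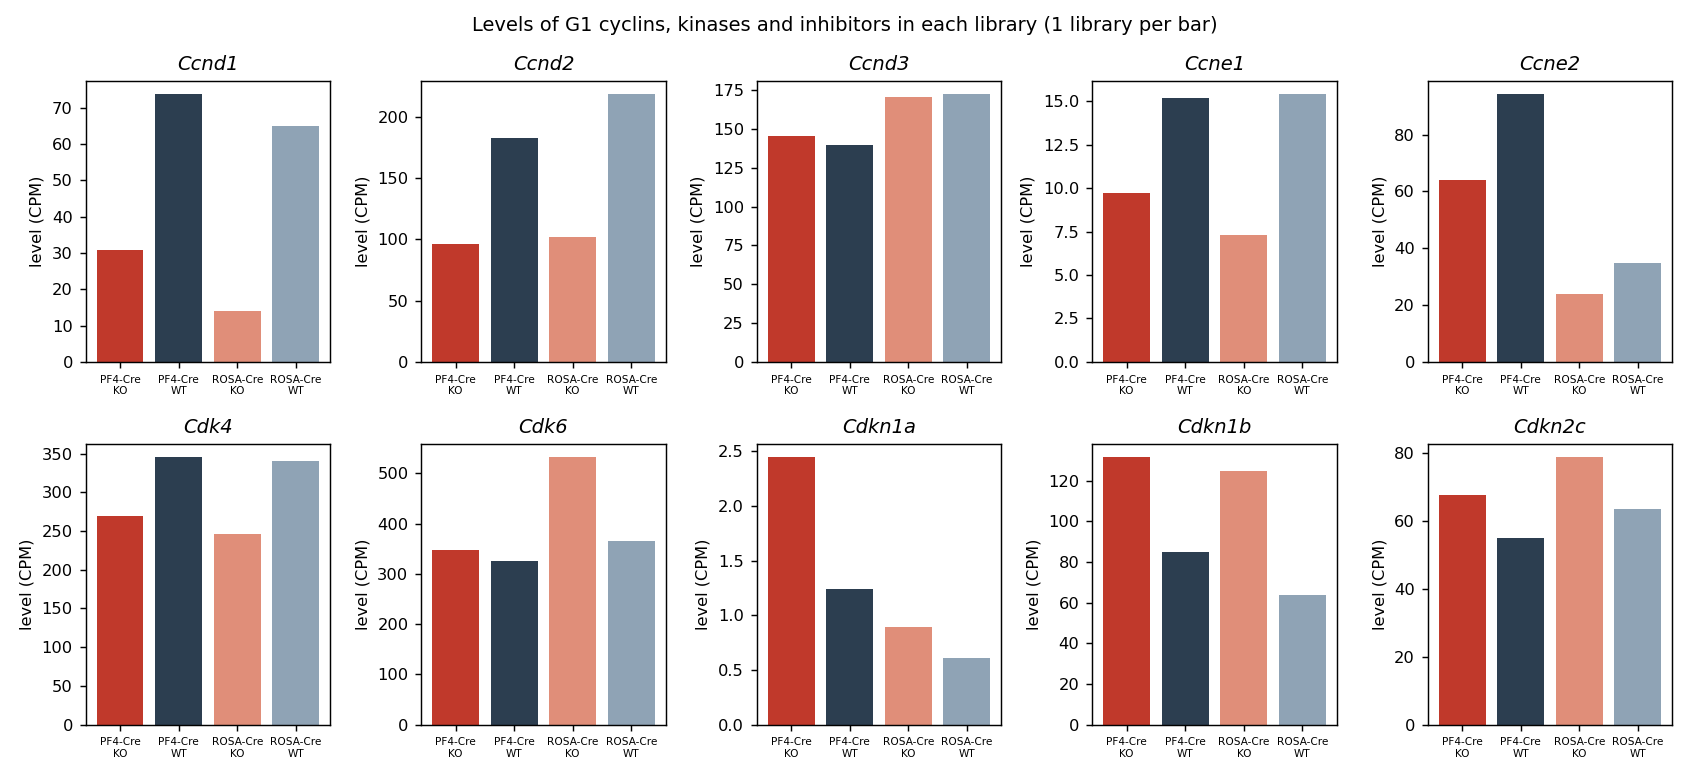
Level of each gene in CPM (y axis, from 0, its own scale per panel) in each of the 4 libraries (x axis, 1 bar per library, KO left of wild-type in each Cre model). Both KO bars lie below both wild-type bars for Ccnd1, Ccnd2, Ccne1 and Cdk4 and above both for Cdkn1b and Cdkn2c.

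The cyclin D genes moved unequally. Ccnd1, on chromosome 7 (144929931 to 144939925, minus strand, GRCm38), encodes cyclin D1, the D cyclin most often studied as a sensor of growth signals. It had 1859 counts (30.7 CPM) in PF4-Cre KO and 313 counts (14.0 CPM) in ROSA-Cre KO, against 4404 counts (73.7 CPM) in PF4-Cre wild-type and 1596 counts (64.9 CPM) in ROSA-Cre wild-type. Both KO libraries were below both wild-type libraries, and the ROSA-Cre KO library was the lowest. Across models its log2 fold change was -1.71 (SE 0.23, adjusted p = 0.00411). Within a model, where 1 library stands against 1 and only counting error can be given, the ratio of KO to wild-type was 0.417 in PF4-Cre (95% Clopper-Pearson interval 0.395 to 0.440) and 0.216 in ROSA-Cre (0.190 to 0.244). Of all tested genes 58 (0.385%) were at least as far down in both models. For the other called genes that share was larger, at 1.65% for Ccnd2, 2.85% for Ccne1, 6.05% for Ccne2 and 12.8% for Cdk4. For Cdkn1b 10.2% were at least as far up.

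Ccnd2, on chromosome 6 (127125162 to 127152193, minus strand), encodes cyclin D2, which is prominent in blood cells. It had 5831 counts (96.4 CPM) in PF4-Cre KO and 2284 counts (102 CPM) in ROSA-Cre KO, against 10919 counts (182.7 CPM) and 5377 counts (218.5 CPM) in the wild-type libraries of the same models. The KO libraries lay close together and below both wild-type libraries. In log2 terms the change was -1.01 (SE 0.12, adjusted p = 0.00269), with ratios of 0.528 in PF4-Cre (0.511 to 0.545) and 0.467 in ROSA-Cre (0.444 to 0.490).

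Ccnd3, on chromosome 17 (47505051 to 47599691, plus strand), encodes cyclin D3, the D cyclin linked to megakaryocyte polyploidy in mice. It had 8814 counts (145.7 CPM) and 3824 counts (170.8 CPM) in PF4-Cre and ROSA-Cre KO, against 8357 counts (139.8 CPM) and 4238 counts (172.2 CPM) in wild-type. The KO and wild-type values overlapped, and the models differed more than the genotypes. The log2 fold change of 0.02 (SE 0.12, adjusted p = 0.904) did not pass the test, and the ratios were 1.04 in PF4-Cre (1.01 to 1.07) and 0.992 in ROSA-Cre (0.949 to 1.04).

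Levels of different genes can be compared only per length, here as RPKM, the CPM divided by the annotated exon length in kilobases. Summed over the 3 D cyclins the level was 33.4 RPKM in PF4-Cre KO and 33.3 RPKM in ROSA-Cre KO, against 51.0 and 56.6 RPKM in wild-type. Ccnd3 made up 49.8% and 58.5% of that sum in KO and 31.2% and 34.7% in wild-type libraries. Ccnd1 made up 19.6% and 8.92% in KO and 30.7% and 24.3% in wild-type. Ccnd2 held 30.7% and 32.6% in KO and 38.1% and 41.0% in wild-type, where it was the first of the 3 by level in both models. In both KO libraries Ccnd3 was first.

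**Figure D2:**
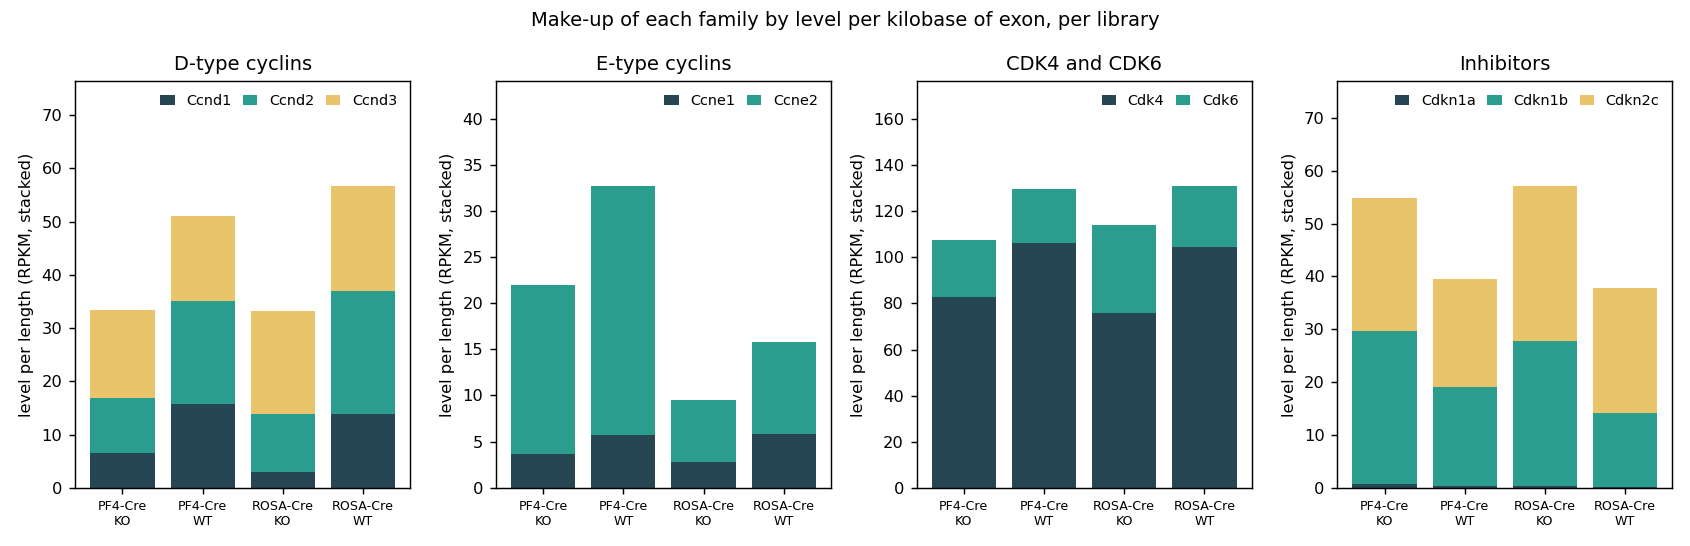
Level per kilobase of annotated exon (RPKM, y axis, stacked from 0) of each gene in 4 families, in each library (x axis, KO left of wild-type in each model). The Ccnd3 segment is of like height in all 4 libraries while Ccnd1 and Ccnd2 are shorter in KO, and the E cyclin bars are lower in ROSA-Cre than in PF4-Cre.

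The E cyclins, partners of CDK2 at the start of replication, were both lower in KO. Ccne1, on chromosome 7 (38097984 to 38107534, minus strand), encodes cyclin E1. Its counts were 589 (9.74 CPM) in PF4-Cre KO and 163 (7.28 CPM) in ROSA-Cre KO, against 908 (15.2 CPM) and 379 (15.4 CPM) in wild-type. The wild-type libraries were nearly level and both KO libraries lay below them. Its log2 fold change was -0.84 (SE 0.22, adjusted p = 0.0376), with ratios of 0.641 in PF4-Cre (0.577 to 0.712) and 0.474 in ROSA-Cre (0.391 to 0.569).

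Ccne2, on chromosome 4 (11191351 to 11204779, plus strand), encodes cyclin E2. Its counts were 3868 (63.9 CPM) in PF4-Cre KO and 532 (23.8 CPM) in ROSA-Cre KO, against 5626 (94.1 CPM) and 857 (34.8 CPM) in wild-type. Each KO library was below the wild-type library of its own model, but the PF4-Cre KO library was above the ROSA-Cre wild-type library, so the genotypes overlapped. Fitted within models, the log2 fold change was -0.55 (SE 0.13, adjusted p = 0.0263), and the ratios were close, 0.679 in PF4-Cre (0.652 to 0.708) and 0.683 in ROSA-Cre (0.611 to 0.761).

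The Cre models differed in Ccne2 by more than the genotypes did. Across genotypes Ccne2 was lower in ROSA-Cre than in PF4-Cre (log2 fold change -1.43, SE 0.13, adjusted p = 0.00366, edgeR's test of the Cre model term), and it was the 1 gene of the 10 that this test called, where 18.7% of all tested genes were called, 8.33% higher and 10.4% lower in ROSA-Cre. Ccne2 made up 83.3% of the summed E cyclin RPKM in PF4-Cre KO and 71.3% in ROSA-Cre KO, against 82.5% and 63.3% in wild-type. Without the genotype term the adjusted p was 0.249, and over the 9 alternatives that kept all libraries it ranged from 1.18e-11 to 0.249. Without any 1 library, with genotype dropped, Ccne2 was not called in any of the 4 fits (log2 fold change -1.74 to -1.14, adjusted p = 0.347 to 0.991). The ROSA-Cre libraries were the shallower ones, and depth, library preparation and Cre model cannot be told apart. The other genes did not pass that test, the nearest being Cdkn1a (-1.27, SE 0.41, adjusted p = 0.0722) and Ccnd1 (-0.63, SE 0.23, adjusted p = 0.0914), which the DESeq2 Wald test called (adjusted p = 0.0443, in a range of 0.0443 to 0.873 over the same 9 alternatives).

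Of the G1 kinases, Cdk4 was lower in KO and Cdk6 was not called. Cdk4, on chromosome 10 (127063534 to 127067920, plus strand), had 16265 counts (268.9 CPM) in PF4-Cre KO and 5526 counts (246.8 CPM) in ROSA-Cre KO, against 20657 counts (345.6 CPM) and 8374 counts (340.3 CPM) in wild-type. The wild-type libraries were nearly level, and both KO libraries were lower. Across models the log2 fold change was -0.41 (SE 0.12, adjusted p = 0.0485), with ratios of 0.778 in PF4-Cre (0.762 to 0.794) and 0.725 in ROSA-Cre (0.701 to 0.750). This call lay at the threshold, and 3 of 9 alternatives that kept all libraries gave it (adjusted p = 0.0397 to 0.396).

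Cdk6, on chromosome 5 (3341485 to 3531008, plus strand), encodes the kinase that shares the D cyclins with CDK4 and is the more prominent of the pair in blood progenitors. It had 21012 counts (347.4 CPM) in PF4-Cre KO and 11921 counts (532.4 CPM) in ROSA-Cre KO, against 19521 counts (326.6 CPM) and 8983 counts (365.0 CPM) in wild-type. The ROSA-Cre KO library stood apart above the other libraries, and the PF4-Cre KO library lay between the wild-type ones. Its log2 fold change of 0.32 (SE 0.15, adjusted p = 0.171) did not pass the test, with ratios of 1.06 in PF4-Cre (1.04 to 1.08) and 1.46 in ROSA-Cre (1.419 to 1.499). Whether such ratios differ between the models could not be tested, since 1 library per group leaves no spread for it. Per length Cdk4 exceeded Cdk6 by 3.33 times in PF4-Cre KO and 2 times in ROSA-Cre KO, against 4.56 and 4.01 times in wild-type.

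Among the inhibitors Cdkn1b was higher in KO. Cdkn1b, on chromosome 6 (134920401 to 134925513, plus strand), encodes the CDK inhibitor p27, which restrains cyclin E-CDK2. It had 7967 counts (131.7 CPM) in PF4-Cre KO and 2798 counts (125.0 CPM) in ROSA-Cre KO, against 5084 counts (85.1 CPM) and 1566 counts (63.6 CPM) in wild-type. Both KO libraries were above both wild-type libraries. The log2 fold change was 0.80 (SE 0.14, adjusted p = 0.00895), with ratios of 1.55 in PF4-Cre (1.495 to 1.604) and 1.96 in ROSA-Cre (1.85 to 2.09).

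Cdkn2c, on chromosome 4 (109660876 to 109667189, minus strand), encodes p18, an INK4 inhibitor of CDK4 and CDK6. It had 4087 counts (67.6 CPM) and 1763 counts (78.7 CPM) in PF4-Cre and ROSA-Cre KO, against 3280 counts (54.9 CPM) and 1563 counts (63.5 CPM) in wild-type. The KO libraries were above the wild-type ones, by ratios of 1.23 in PF4-Cre (1.18 to 1.29) and 1.24 in ROSA-Cre (1.16 to 1.33). The log2 fold change of 0.30 (SE 0.12, adjusted p = 0.124) did not pass the test.

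Cdkn1a, on chromosome 17 (29090976 to 29100727, plus strand), encodes p21, the inhibitor that p53 switches on after DNA damage. It was scarce, with 148 counts (2.45 CPM) in PF4-Cre KO and 20 counts (0.893 CPM) in ROSA-Cre KO, against 74 counts (1.24 CPM) and 15 counts (0.610 CPM) in wild-type. Each KO library was above the wild-type library of its model, and the genotypes overlapped across models. The log2 fold change of 0.88 (SE 0.37, adjusted p = 0.129) did not pass. The ratio was 1.96 in PF4-Cre (1.49 to 2.65), and in ROSA-Cre, at 1.44 (0.713 to 3.08), a difference was not detectable at this depth. Per length Cdkn1a held between 0.441% and 1.26% of the summed level of the 3 inhibitors in every library.

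Summed over the 3 inhibitors the level per length was 54.8 RPKM in PF4-Cre KO and 57.0 RPKM in ROSA-Cre KO, against 39.5 and 37.8 RPKM in wild-type, which is 1.39 and 1.51 times higher in KO. The quotient of Cdkn1b to Ccnd1 per length was 4.43 in PF4-Cre KO and 9.25 in ROSA-Cre KO, against 1.19 and 1.02 in wild-type. The quotient of Cdkn1b to Ccnd2 was 2.82 and 2.53 in KO, against 0.962 and 0.602 in wild-type. These quotients describe transcripts and have no test of their own.

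**Figure D3:**
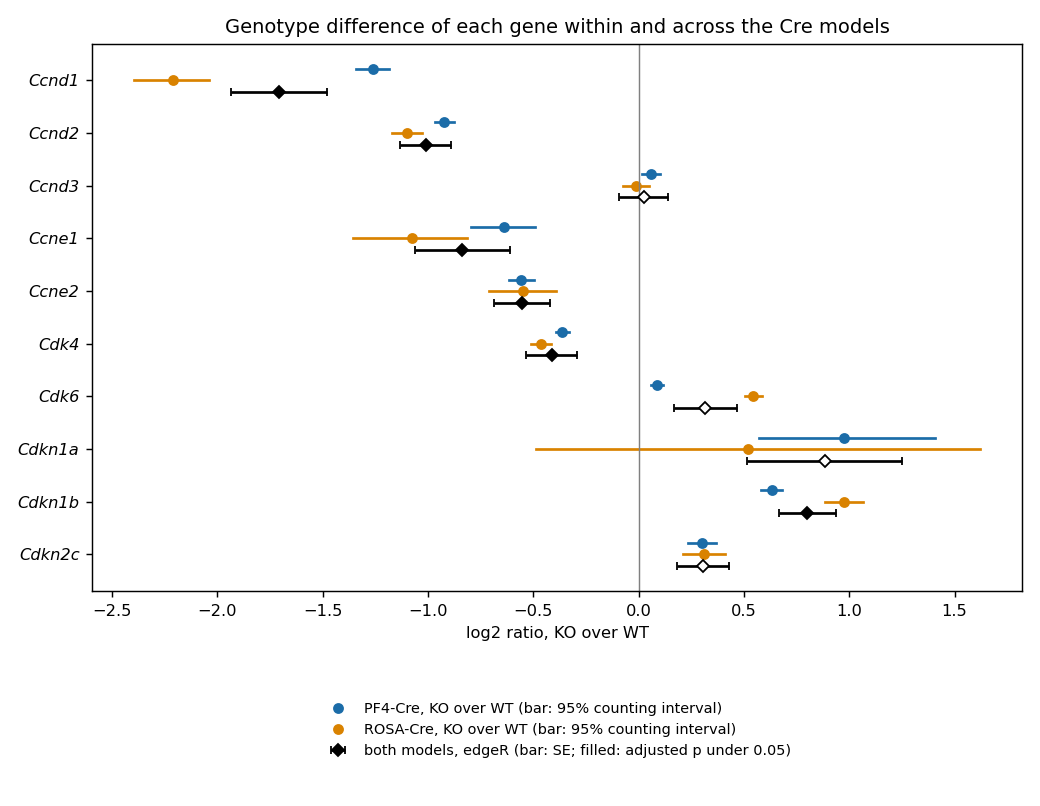
Log2 ratio of KO to wild-type (x axis) for each gene (y axis) within PF4-Cre and within ROSA-Cre, with 95% Clopper-Pearson counting intervals, and the edgeR estimate over both models with its standard error, filled where the adjusted p is under 0.05. Ccnd1 lies farthest to the left in both models, Ccnd3 near 0, and 7 of 10 genes are farther from 0 in ROSA-Cre than in PF4-Cre.

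Within single models, with at least 100 counts over the pair of libraries, 1 of 10 genes was at least 2-fold lower in KO in PF4-Cre (Ccnd1), where 1.76% of 12952 genes were and 9.60% were 2-fold apart in either direction. In ROSA-Cre 3 of 9 were (Ccnd1, Ccnd2 and Ccne1), where 4.99% of 11751 genes were and 15.2% were 2-fold apart in either direction, and Cdkn1a had too few counts. In neither model was a gene 2-fold higher by this measure (0 of 10 and 0 of 9), where 7.84% and 10.2% of all genes were. Library totals in place of TMM put Cdkn1a past 2-fold in PF4-Cre and Cdkn1b past it in ROSA-Cre. Of the 10 genes, 5 were lower in both models, 4 were higher in both and Ccnd3 had ratios on opposite sides of 1.

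Leaving out 1 library allows the genotype effect to be fitted only without the Cre model term, with the lone sample of an arm assumed to vary like the others, and this ended most calls. Ccnd1 remained called without PF4-Cre KO, PF4-Cre wild-type or ROSA-Cre wild-type, and without the ROSA-Cre KO library its log2 fold change was -1.17 (adjusted p = 0.131, in a range of 0.00173 to 0.131). Ccnd2 (-1.14 to -0.85, adjusted p = 0.0727 to 0.292), Ccne1 (-1.07 to -0.65, 0.274 to 0.719), Cdk4 (-0.47 to -0.35, 0.573 to 0.857) and Cdkn1b (0.62 to 1.02, 0.186 to 0.652) kept their direction in all 4 such fits and were called in 0 of them. Ccne2 ranged from -1.44 to 0.35 (adjusted p = 0.0998 to 0.996), positive without the PF4-Cre wild-type library. With all 4 libraries and no Cre model term 0 of the 10 were called by edgeR, and 4 had an unadjusted p under 0.05.

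For 7 of the 10 genes, an annotated gene on the opposite strand overlapped, and the strand setting of the counting is not given, so that reads of such pairs cannot be told apart with certainty. Exons of Lto1 overlap 1100 bases of the Ccnd1 exons, and its counts were 1365 and 600 in PF4-Cre and ROSA-Cre KO, against 1446 and 709 in wild-type. Ints8 shares 609 bases with Ccne2, Tspan31 641 bases with Cdk4, and Bysl 361 bases with Ccnd3. Ccne1, Cdkn1b and Cdkn2c had no such neighbour.

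RefSeq start sites on GRCm38.p6 were found for 7 of the 10 genes (not Ccnd1, Ccnd2 or Ccne2), and the 250 bases before the start are printed 5′ to 3′ for 3 called genes, the kinase and the E cyclin that were lower and the inhibitor that was higher. They lie at chr10:127063285-127063534 (plus strand, Cdk4), chr7:38107491-38107740 (minus strand, Ccne1) and chr6:134920151-134920400 (plus strand, Cdkn1b). Capitals mark matches on either strand to AATC, the core that GFI1 and GFI1B recognise, to TTTNGCGC, an E2F-type motif, or to CACGTG, the E-box bound by MYC and related factors. CACGTG reads the same on both strands and was added after the sequences had been seen, and none of the matches overlap.
Cdk4: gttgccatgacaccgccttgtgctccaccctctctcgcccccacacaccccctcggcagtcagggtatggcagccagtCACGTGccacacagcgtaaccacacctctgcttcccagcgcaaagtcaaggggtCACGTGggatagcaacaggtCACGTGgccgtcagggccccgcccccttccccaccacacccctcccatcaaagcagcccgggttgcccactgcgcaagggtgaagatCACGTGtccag
Ccne1: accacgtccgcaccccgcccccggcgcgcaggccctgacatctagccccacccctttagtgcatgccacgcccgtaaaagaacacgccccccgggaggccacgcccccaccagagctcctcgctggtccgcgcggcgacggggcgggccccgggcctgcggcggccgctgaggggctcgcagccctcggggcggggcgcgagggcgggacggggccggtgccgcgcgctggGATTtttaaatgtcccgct
Cdkn1b: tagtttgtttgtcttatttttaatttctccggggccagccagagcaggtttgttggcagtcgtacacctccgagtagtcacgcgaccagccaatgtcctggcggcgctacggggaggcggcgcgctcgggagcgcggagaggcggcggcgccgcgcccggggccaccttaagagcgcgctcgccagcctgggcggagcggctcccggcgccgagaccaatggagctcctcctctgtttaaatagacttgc

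The Cdk4 window held CACGTG 4 times, beginning 172, 118, 98 and 11 bases before the start. The window of Cdk6, which was not called, held CACGTG 1 time, beginning 220 bases before the start. Of 32851 promoter windows of the same length 6.02% held CACGTG at least once, and 7 windows (0.0213%) held it 4 times or more. Both the motif and the limit of 4 matches were taken from the Cdk4 window, so the last share is a description and no test. The Ccne1 window held AATC 1 time, on the other strand as GATT, and the Cdkn1b window held none of the motifs. AATC also stood in at least 1 window each of Ccnd3, Cdkn1a and Cdkn2c, which were not called. AATC stood in 69% of all windows and TTTNGCGC in 1.13%, and none of the 10 windows of these 7 genes held TTTNGCGC. Of 29 windows of 24 E2F target genes of replication, from the list described below, 6 held TTTNGCGC. A match describes the sequence and does not show binding, and a missing match does not show a lack of it.

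The rest of the G1 machinery was described from lists of genes chosen for their known roles. The calls in these lists rest on the Cre model term and on all 4 libraries. Together they held 15 higher and 54 lower genes, against 10 and 26 with no filter on low counts, 0 and 0 by edgeR without the Cre model term (38 at an unadjusted p under 0.05), and 2 to 6 higher and 0 to 1 lower without any 1 library, where that term is dropped too. Of the 27 called genes named from these lists below, 21 were called in 0 of the 4 fits that left out a library, and all 27 kept their direction in them. Cdkn1c and Trp53inp1 were called in all 4, Ect2 and Eda2r in 2, and Mybl2 and Phlda3 in 1. Of 16 other cyclins, kinases, phosphatases and inhibitors tested, 6 were lower in KO and 1 higher, and 6 of 19 genes of the RB, E2F and DP group were lower and 1 higher, beside the 9.59% and 12.6% of all genes. Cdkn1c, which encodes p57, the third CIP/KIP inhibitor, was the 1 gene of the first of these lists that rose. It had 598 counts (9.89 CPM) in PF4-Cre KO and 176 counts (7.86 CPM) in ROSA-Cre KO, against 101 counts (1.69 CPM) and 17 counts (0.691 CPM) in wild-type. Its log2 fold change was 2.83 (SE 0.34, adjusted p = 0.00261). It lay between 2.43 and 3.69 without any 1 library, and without the Cre model term it was not called (adjusted p = 0.0645, in a range of 7.9e-09 to 0.0645 over 9 alternatives). Cdkn2d, the INK4 gene chosen here after its value was seen, had 58.9 and 66.7 CPM in KO against 66.9 and 72.5 CPM in wild-type and was not called, and the INK4 genes Cdkn2a and Cdkn2b, likewise chosen, were under 0.1 CPM in every library.

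The mitotic kinase gene Cdk1 fell by 0.74 on the log2 scale (SE 0.13), and Cdc25a and Cdc25b, phosphatases that remove inhibitory phosphates from CDKs, fell by 0.73 (SE 0.14) and by 0.67 (SE 0.13). Cdk2, the partner of cyclin E named here after its value was seen, was at 97.6 and 95.7 CPM in KO against 131.1 and 121.0 CPM in wild-type and missed the threshold (-0.38, SE 0.12, adjusted p = 0.0574). Mybl2, a cofactor of the MuvB complex that drives mitotic genes, fell by 1.37 (SE 0.19), E2f4 by 0.66 (SE 0.15) and E2f3 by 0.58 (SE 0.14), and E2f5 rose (0.90, SE 0.22).

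Skp2 and Cks1b, the F-box protein and its cofactor that mark p27 for degradation, were lower in KO. Cks1b had 74.6 and 57.9 CPM in KO against 105.8 and 125.6 CPM in wild-type (log2 fold change -0.81, SE 0.17, adjusted p = 0.0175). Skp2 had 35.8 and 24.7 CPM in KO against 50.3 and 40.5 CPM in wild-type (-0.60, SE 0.15, adjusted p = 0.0306). With Cks2, they were the 3 of 18 turnover genes that were called, all lower, where 22.2% of all tested genes were called and 9.59% were lower. With no filter on low counts 0 of the 18 were called by edgeR (6 at an unadjusted p under 0.05). Without any 1 library Cks1b had adjusted p = 0.168 to 0.598, and Skp2 ranged from -0.88 to -0.34 (adjusted p = 0.295 to 0.866).

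Of 26 tested upstream regulators 2 were higher and 3 lower, a share near that of all genes (12.6% and 9.59%). Foxo1, a FOXO factor of the family that activates Cdkn1b, had 11.9 and 19.0 CPM in KO against 5.46 and 8.01 CPM in wild-type (1.18, SE 0.22, adjusted p = 0.0117). Myc, which in other cells activates Ccnd2 and Cdk4, had 26.1 and 32.3 CPM in KO against 40.1 and 51.2 CPM in wild-type (-0.64, SE 0.14, adjusted p = 0.0221). Their relatives Foxo3 (mean of 171.1 CPM) and Mycn (mean of 160.8 CPM), named after their values were seen, had higher CPM, which is not scaled for length. Neither was called (0.37, SE 0.13, adjusted p = 0.0833, and -0.21, SE 0.16, adjusted p = 0.389). Whether any of these factors acted on the G1 genes was not tested. Gata1, the factor of megakaryocytes and red cells, fell by 0.65 (SE 0.13), and Mdm4, an inhibitor of p53, rose (0.41, SE 0.12).

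Of 24 p53 target genes other than Cdkn1a, 10 were higher in KO and 1 lower, with a median log2 fold change of 0.571. Over all tested genes 12.6% were higher and 9.59% lower, the shares to set beside this list and those that follow. Trp53inp1, which encodes a stress-induced partner of p53, had 81.0 and 37.6 CPM in KO against 16.7 and 7.03 CPM in wild-type (2.34, SE 0.16). Phlda3 (2.21, SE 0.33), Eda2r (1.70, SE 0.28) and Fas (1.69, SE 0.27) rose with it, while Cdkn1a, as given above, did not pass. Of the list 13 genes were not called, among them Mdm2 (0.29, SE 0.12) and Bax (0.09, SE 0.17), both named after their values were seen. The ratio of KO to wild-type for Bax was 1.30 in PF4-Cre and 0.864 in ROSA-Cre. Of 29 E2F targets of DNA replication 26 were lower, among them Fen1, Cdc6, Uhrf1 and Pole, and 0 higher (median -0.580), and of 14 mitotic regulators 9 were lower, among them Aurkb, Ccnf and Cdc20, and 1, the cytokinesis gene Ect2, was higher. Without the Cre model term, or without any 1 library, edgeR called 0 of the 29 replication genes (2 to 12 at an unadjusted p under 0.05), and with no filter on low counts 12, while all 29 kept a negative log2 fold change in each of those fits. The lower mitotic genes numbered 0 without the Cre model term or any 1 library and 7 with no filter. The higher p53 targets numbered 0 without the Cre model term, 1 to 3 without any 1 library and 6 with no filter. Each of these lists was chosen with earlier results of these data known.

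**Figure D4:**
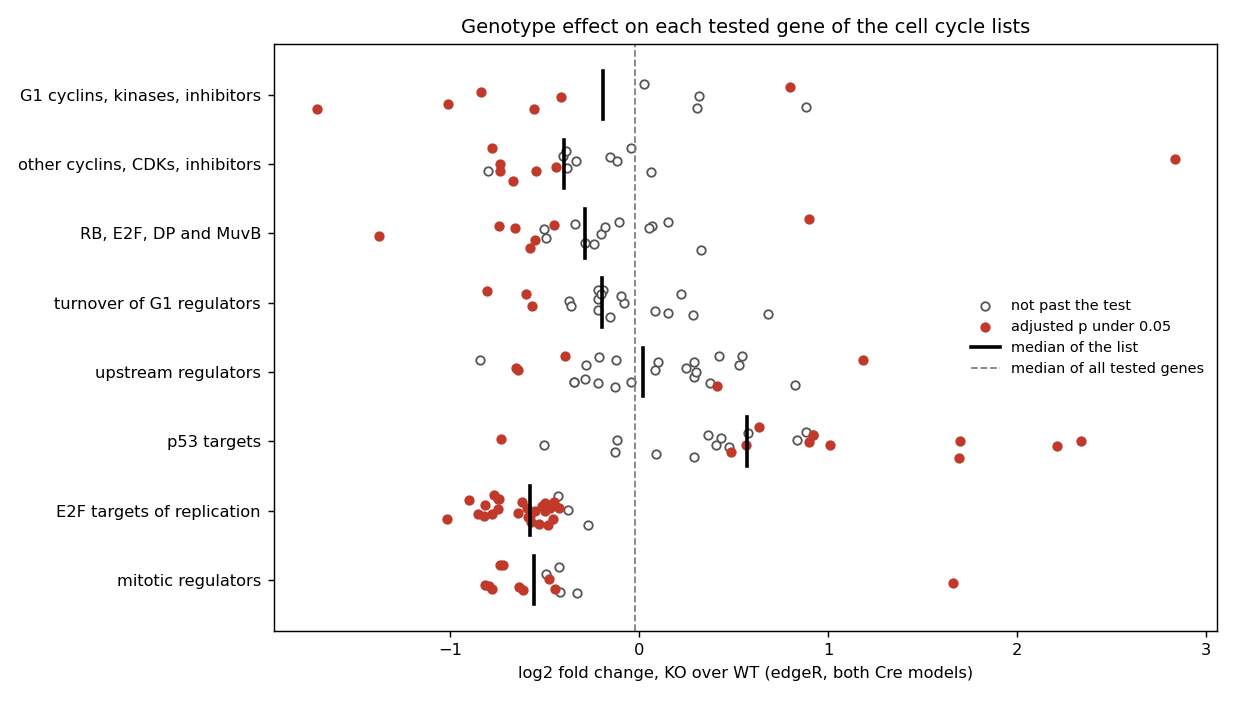
Log2 fold change of KO over wild-type from edgeR (x axis) for each tested gene of 8 cell cycle lists (y axis, jittered), filled where the adjusted p is under 0.05, with list medians as bars and the median of all tested genes dashed. The replication and mitosis lists lie to the left of the dashed line but for Ect2, the p53 targets lie mostly to the right, and the G1 genes spread to both sides.

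By a rule on profile shape, the genes most like the 3 G1 genes with the smallest p were named from 10585 others with a mean of at least 5 CPM, by Euclidean distance of log2 CPM centred over the 4 libraries. Nearest to Ccnd2 were Cdc42ep4 (distance 0.0597), Bace1 (0.0833) and Nup210 (0.103). Nearest to Ccnd1 were Slc28a2 (0.187), Bri3bp (0.197) and Dio2 (0.230), all at a greater distance than the neighbours of Ccnd2. Nearest to Cdkn1b were Amn1 (0.0532), Plod2 (0.0795) and Lacc1 (0.0873). With 4 libraries such likeness is a description only.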

How the data were processed

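The authors deposited raw read counts per Ensembl gene for each of the 4 libraries, not normalised. The kits were MagMax-96 for RNA and stranded TruSeq mRNA with paired-end clusters for libraries, per the labels' protocols. Tools credited in the submitters' processing notes are HTSeq, DESeq, SAMtools and TopHat2 (2.0.10), with builds mm10 and GRCm38. The sources used here do not give annotation release, strand setting or pooling. Lines for reads without a gene (32.0% to 36.2% of unique reads) or with an ambiguous one (0.449% to 0.532%) stayed out of library sizes and tests. Symbols and exon lengths came from GENCODE M21 (40254 of 41214 identifiers).

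From these counts, edgeR 4.0.16 in R 4.3.3 was run over the whole table with TMM, filterByExpr by genotype (minimum count 10), terms for Cre model and genotype, and quasi-likelihood F-tests with Benjamini-Hochberg adjustment at 0.05. This left 1 residual and 6.25 prior degrees of freedom and a shared coefficient of biological variation of 16.1%. Standard errors were obtained by dividing log2 fold changes by the root of F. Within-model ratios used a pseudocount of 1 and exact intervals, which reflect counting error alone, because each group has 1 library. Without molecular identifiers PCR copies count as separate reads, which the intervals do not allow for. A count of 0 allows up to 0.0503 and 0.137 CPM in PF4-Cre and ROSA-Cre KO and 0.0487 and 0.121 CPM in wild-type (3 counts per library). RPKM used the union of annotated exons, which may include unused ones. The genotype fit was also run on simulated counts with a shared spread and no Cre model effect. Those counts are simpler than these data, so that run cannot show how reliable the calls here are.

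The genes and lists were chosen with earlier results of these data known. The other genes named were, by rule, up to 4 called genes with the smallest p per list, the most abundant marker of the other cell types, and the 3 nearest profiles of the 3 G1 genes with the smallest p. Genes chosen otherwise are marked as such. Alternatives were DESeq2 1.42.0 size factors and Wald test, upper-quartile scaling, other filters, other quasi-likelihood settings, no second term, no erythroid, neutrophil or mitochondrial genes, and each library left out.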

Additional observations from a re-analysis of the deposited data

How the results depend on the processing

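Of the 9 alternatives that kept all libraries, the genotype effect kept its direction in each for all 10 G1 genes (8 for Cdkn1a, which a filter on mean CPM removed). Ccnd1, Ccnd2 and Cdkn1b were called in 8 of 9, Ccne2 in 7, Ccne1 in 6 and Cdk4 in 3. With no filter on low counts 3 of the 10 were called, 36 genes of the other cell cycle lists (against 69) and 1935 over all genes (against 3348). The share higher among all called genes, 56.9%, was 68.3% under upper-quartile scaling, 72.7% with no filter, 97.5% without the Cre model term and 82.1% to 90.8% without any 1 library. Without the Cre model term 0, 0 and 162 were called by edgeR, with 4 of the 10 and 38 of the list genes at an unadjusted p under 0.05; the cause was not tested. Without each library in turn the counts ranged from 0 to 1, from 2 to 7 and from 509 to 883, with 3 to 4 of the 10 at an unadjusted p under 0.05. These fits also drop the second term, and library and term cannot be told apart.

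The genotype effect changed sign in such fits for Ccnd3 (-0.12 to 0.20), Ccne2 (-1.44 to 0.35), Cdkn1a (-0.13 to 1.56), Car2 (-0.61 to 0.073), Prg2 (-4.71 to 2.18) and Tie1 (-0.19 to 0.33). The Cre model effect did so for Ccnd1 (-1.91 to 0.35), Ccnd2 (-0.46 to 0.72), Ccne1 (-0.79 to 0.30), Cdk4 (-0.33 to 0.15) and Cdkn1b (-0.77 to 0.19). For the Cre model, the DESeq2 Wald test called 2 of the 10, against 1. Without the genotype term edgeR called 0 (1 at an unadjusted p under 0.05), and without any 1 library 0 (1 to 3). In PF4-Cre 5 genes passed 1.5-fold and 2 passed 2-fold on library totals, against 1.

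KO and wild-type libraries are matched within Cre model by the Cre model term, so the reported fit is itself the matched one, and without that term 0 of the 10 genes were called, against 6. A block by replicate number could not be added, since the labels give no replicate numbers. Depth limits Cdkn1a most, with 20 counts in the ROSA-Cre KO library and 15 in the wild-type one.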
